A study of Saccharomyces cerevisiae with 4 samples.

Results

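The box C/D small nucleolar RNAs (snoRNAs) of budding yeast, SNR24, SNR62, SNR76, SNR47, SNR63, SNR13, SNR75, SNR64, SNR65 and SNR66, guide methylation in the middle of the 25S rRNA, at nucleotides 1437 to 2417. They were chosen for that position of their targets and not for any measured value. These 10 are among the 77 RNAs listed in the deposited snoRNA tables, and all 10 were detected in both libraries that have such a table. The data come from PAR-CRAC, in which cells take up 4-thiouracil, RNA is cross-linked to protein with light of 365 nm, and cross-linked uridines are read as T-to-C substitutions. The 4 libraries comprise 2 from *Saccharomyces cerevisiae* without a tagged protein (WT) and 2 from a strain expressing Dbp7-HTP, the RNA helicase Dbp7 carrying a C-terminal His-TEV-protein A tag. Both strains were grown with 4-thiouracil, irradiated and taken through the same purification, so reads in WT are RNA recovered without a tagged protein, and the tag is the one difference between the strains that is stated. snoRNA tables of the second replicate of each strain were used (WT 2 and Dbp7-HTP 2), whereas rRNA coverage was measured in all 4 libraries.

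A box C/D snoRNA carries short antisense stretches that base pair with the pre-rRNA, next to a box D or D' motif that fixes which ribose is methylated. The methyl group is placed on the 2'-OH by Nop1, the yeast fibrillarin, in a particle with Nop56, Nop58 and Snu13. Because the snoRNA pairs with the pre-rRNA during assembly, the guide has to be released again, and RNA helicases are known to take part in that release. The 10 guides direct 13 methylations in the middle of 25S. SNR24 guides Cm1437, Am1449 and Gm1450, SNR13 guides the neighbouring Am2280 and Am2281, and each of the other guides has a single target here. SNR47 also guides Am619 of the 18S rRNA. SNR24 lies within ASC1, which encodes a small-subunit ribosomal protein, and SNR75 and SNR76 are neighbours in the SNR72 to SNR78 cluster, whose snoRNAs are cut from a shared precursor. The remaining 7 overlap no other gene in the reference gene table.

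The targets are shown with the 10 nucleotides on each side, because these are the stretches over which rRNA coverage was averaged. They were read from the deposited 35S sequence in DNA letters, 5' to 3', with the nucleotides methylated by the 10 guides in capitals. Targets of other guides are not marked. The base at each of the 13 positions is the one in the name of its methylation. Targets whose stretches overlap are joined, which leaves 8 stretches, and values of targets within 1 stretch are not independent.
SNR24, 25S nucleotides 1427 to 1460: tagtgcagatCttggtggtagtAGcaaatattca
SNR62, 25S nucleotides 1878 to 1898: gatagaataaTgtagataagg
SNR76, 25S nucleotides 2187 to 2207: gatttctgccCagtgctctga
SNR47, 25S nucleotides 2210 to 2230: gtcaaagtgaAgaaattcaac
SNR63, 25S nucleotides 2246 to 2266: ggcgggagtaActatgactct
SNR13 and SNR75, 25S nucleotides 2270 to 2298: aaggtagccaAAtgcctcGtcatctaatt
SNR64 and SNR65, 25S nucleotides 2327 to 2357: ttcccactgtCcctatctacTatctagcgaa
SNR66, 25S nucleotides 2407 to 2427: ctgttgagctTgactctagtt

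The libraries held 159127 (WT 1, estimated), 467529 (WT 2), 1214217 (Dbp7-HTP 1, estimated) and 730583 reads (Dbp7-HTP 2), and values are given as reads per 1000000 mapped reads (RPM). The strains differ in how much of a library is rRNA, which was 401067 and 326221 RPM in WT and 722347 and 700544 RPM with Dbp7-HTP. An RPM of any other RNA is therefore set against a much larger rRNA fraction in Dbp7-HTP, and ratios are also given over the reads outside rRNA, which multiplies each of them by 2.25. The snoRNA reads are also dominated by snR190 in 1 strain. The listed snoRNA reads numbered 4295 in WT 2 and 8725 in Dbp7-HTP 2, but 4059 and 4300 without snR190. Scaling to the latter multiplies each ratio by 1.48.

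With 1 snoRNA table per strain the guides have no replicate check, and the ratios compare 2 libraries, with exact (Clopper-Pearson) 95% intervals that cover counting error only. By RPM, 9 of the 10 guides were lower in Dbp7-HTP 2 than in WT 2 and SNR63 was near equal, where 60.0% of the 75 listed RNAs with at least 10 reads had a ratio below 1. The median ratio was 0.481, against 0.730 for those 75. None of the 10 had a ratio above 2, where 12.0% of the listed RNAs did, and 6 had a ratio below 0.5, where 36.0% did. The interval lay below 1 for 5 guides and held 1 for the other 5, where 37.3% of the listed RNAs had an interval below 1. Over reads outside rRNA the median of the 10 was 1.08 against 1.64 for all listed RNAs, with 2 guides above 2 and 2 below 0.5, where 42.7% of the listed RNAs were above 2 and 8.00% below 0.5. Thus a ratio below 1 by RPM is no statement about the guide relative to other non-rRNA reads. Scaled to snoRNA reads without snR190, 3 of the 10 were below 0.5, against 20.0% of the listed RNAs.

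**Figure D1:**
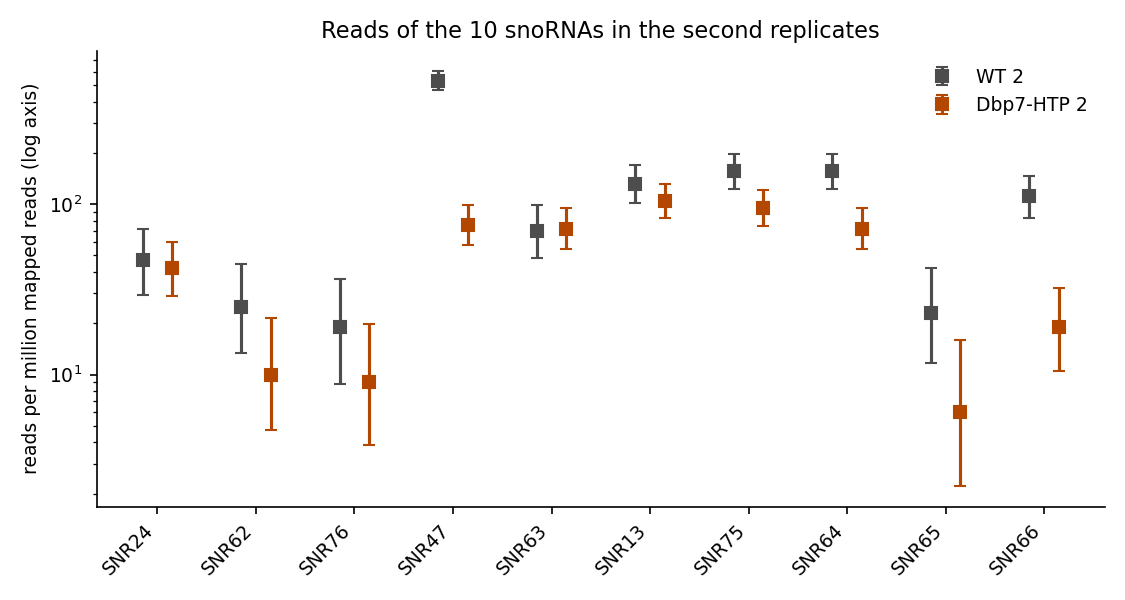
RPM (log axis) of each of the 10 guides in WT 2 (grey) and Dbp7-HTP 2 (brown), in the order of their 25S targets. Points are the single library of each strain and bars are exact 95% counting intervals, which do not overlap for SNR47, SNR64 and SNR66, nearly touch for SNR75 (121 against 122 RPM) and overlap for the other 6.

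SNR47, the guide with targets in both subunits, had 248 reads (530 RPM) in WT 2 and 56 reads (76 RPM) in Dbp7-HTP 2. It was lower in Dbp7-HTP 2 by every scaling. The RPM ratio was 0.145 (0.106 to 0.194), the second lowest of the 75 listed RNAs, and the ratio over reads outside rRNA was 0.325 (0.239 to 0.436). SNR47 made up 5.77% of the listed snoRNA reads in WT 2 (Wilson 95% interval 5.12 to 6.51) and 0.642% in Dbp7-HTP 2 (0.495 to 0.832). These totals include snR190. The ratio over listed snoRNA reads was 0.111 with snR190 in the totals and 0.213 (0.157 to 0.286) without it.

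SNR66, which guides Um2417, had 52 reads (111 RPM) in WT 2 and 14 reads (19 RPM) in Dbp7-HTP 2. The RPM ratio was 0.172 (0.0882 to 0.315), the 4th lowest of the 75, and 0.388 (0.198 to 0.710) over reads outside rRNA. SNR66 and SNR47 were the only guides of the 10 whose interval stayed below 1 over reads outside rRNA. SNR65, which guides Um2347, had 11 reads (23 RPM) in WT 2 and 5 reads (6 RPM) in Dbp7-HTP 2. The ratio was 0.291 (0.0792 to 0.908) by RPM, but the interval held 1 over reads outside rRNA (0.654, 0.178 to 2.04).

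SNR64 and SNR75, the guides for Cm2337 and Gm2288, each had 73 reads (156 RPM) in WT 2, and 53 reads (72 RPM) and 70 reads (95 RPM) in Dbp7-HTP 2. Their RPM ratios of 0.465 (0.320 to 0.671) for SNR64 and 0.614 (0.436 to 0.864) for SNR75 had intervals below 1, but the sign turned over reads outside rRNA, with ratios of 1.05 and 1.38 whose intervals both held 1. SNR62, the guide for Um1888, had 12 reads (25 RPM) in WT 2 and 8 reads (10 RPM) in Dbp7-HTP 2, and SNR76, the guide for Cm2197, had 9 reads (19 RPM) and 7 reads (9 RPM). Their ratios of 0.427 (0.151 to 1.13) and 0.498 (0.158 to 1.5) rest on few reads, and a change could not be told from counting error at this depth. SNR76 lies just inside the limit of 0.5 and SNR75 is the next guide outside it.

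SNR24, SNR13 and SNR63 had the highest ratios of the 10. SNR63, the guide for Am2256, had 33 reads (70 RPM) in WT 2 and 53 reads (72 RPM) in Dbp7-HTP 2, a ratio of 1.03 (0.653 to 1.64). SNR24 had 22 reads (47 RPM) and 31 reads (42 RPM), a ratio of 0.902 (0.506 to 1.63). SNR13 had 62 reads (132 RPM) and 77 reads (105 RPM), a ratio of 0.795 (0.561 to 1.13). All 3 intervals held 1 by RPM. Over reads outside rRNA the ratios were 2.31 (1.47 to 3.69) for SNR63, 2.03 (1.14 to 3.68) for SNR24 and 1.79 (1.26 to 2.54) for SNR13, and these intervals lay above 1. The order of the 10 guides, from SNR47 to SNR63, is the same under each of these scalings, because each multiplies all ratios by 1 factor.

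Together the 10 guides had 595 reads in WT 2 and 374 in Dbp7-HTP 2, an RPM ratio of 0.402 (0.352 to 0.459), to which SNR47 contributed more reads in WT 2 than any other guide. They made up 13.9% (12.9 to 14.9) of the listed snoRNA reads in WT 2 and 4.29% (3.88 to 4.73) in Dbp7-HTP 2. Without snR190 in the total, the shares were 14.7% and 8.70%. The last column of the snoRNA tables has no heading and its meaning is not stated, and the ratio of the summed guides from it was 0.488.

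**Figure D2:**
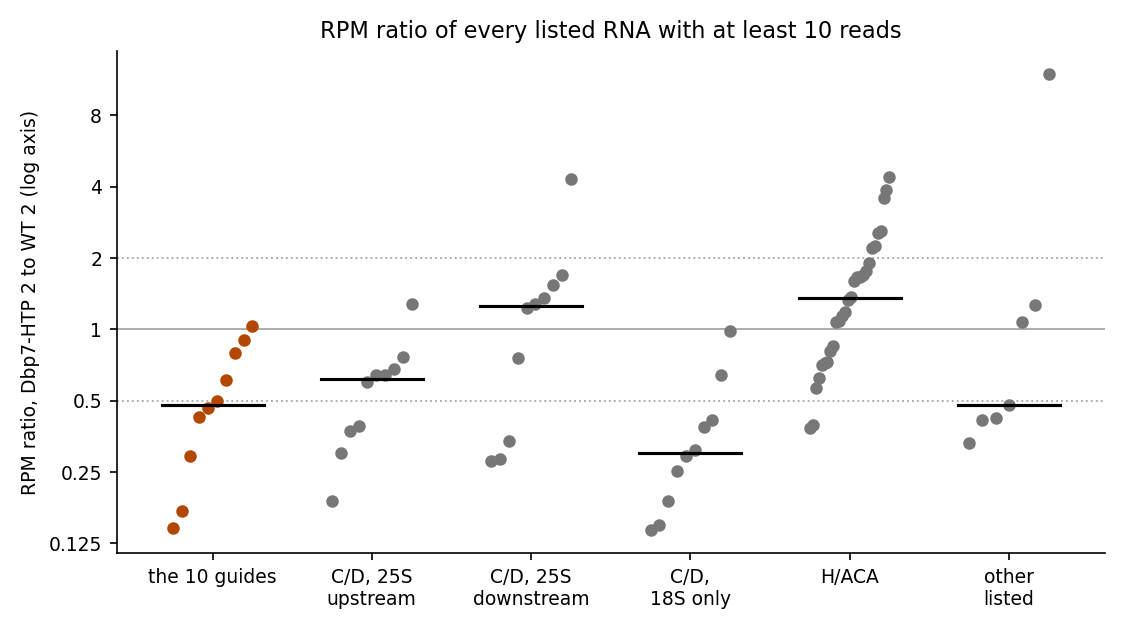
RPM ratio of Dbp7-HTP 2 to WT 2 (log axis) for the 75 listed RNAs with at least 10 reads, by class. Each point is 1 RNA, the black bar is the median of the class and lines mark ratios of 0.5, 1 and 2. The 10 guides lie between 0.145 and 1.03, and the single point above 8 is snR190.

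Other guide classes give the setting for these ratios. The median RPM ratio was 0.619 for 10 box C/D guides with 25S targets upstream of the range (4 below 0.5 and 0 above 2). It was 1.25 for 10 with targets downstream of the range (3 below and 1 above). For 10 box C/D guides of 18S alone it was 0.301 (8 below and 0 above). For 28 box H/ACA snoRNAs, most of which guide pseudouridylation, it was 1.35 (2 below and 7 above). The 10 middle-region guides lay between the 18S guides and the upstream 25S guides by this median. Differences between the classes were not tested, and the classes overlap in the range of their ratios. In the SNR72 to SNR78 cluster the ratios were, in the order of the genes, 0.278 for SNR78, 0.291 for SNR77, 0.498 for SNR76, 0.614 for SNR75, 0.640 for SNR74, 4.30 (2.90 to 6.60) for SNR73 and 1.28 for SNR72. SNR75 and SNR76 were in the middle of a cluster whose members differed by more than their counting intervals, since SNR73 had 29 reads in WT 2 and 195 in Dbp7-HTP 2 while SNR77 had 143 and 65.

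The rRNA side of each guide was measured as the coverage of 25S, averaged over the target and the 10 nucleotides on each side, in all 4 libraries. By RPM it was higher with Dbp7-HTP at 11 of the 13 targets, with a median log2 difference of 0.81 (1.44 without WT 1), but the median was -0.02 after scaling to total 35S coverage and -0.68 after scaling to total 25S coverage. These scalings lower each log2 difference by about 0.83 and 1.49, since the strains differ by that much in total 35S and 25S coverage. Over all nucleotides of 25S the median was 1.04 by RPM and -0.44 scaled to 25S, so the median of the targets was slightly below that of all 25S. At 8 targets both Dbp7-HTP libraries were above both WT libraries by RPM, a share of the 13 near the 69.4% of all 25S positions where this was so. At the targets of SNR62, SNR64, SNR65 and SNR66 the difference stayed positive under all 3 scalings, which was so at 34.9% of all 25S positions, a share near 4 of 13. The RPM difference at these targets was larger than at 81.2%, 73.9%, 80.2% and 98.1% of 25S positions, and at the SNR24 targets larger than at 2.40% (Cm1437), 10.5% (Am1449) and 11.9% (Gm1450) of them. With 2 libraries a strain, an exact two-sided permutation test cannot give a p below 0.333, which was the value at each of the 8 targets.

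**Figure D3:**
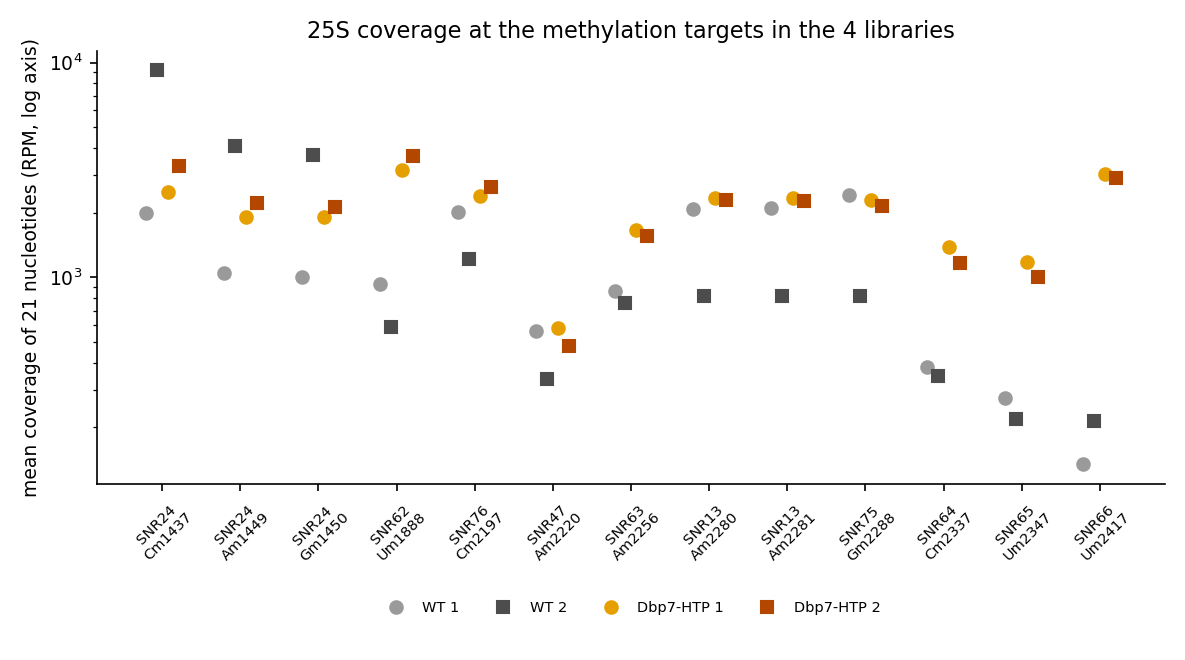
Mean 25S coverage of 21 nucleotides centred on each methylation target (RPM, log axis), in the 2 WT libraries (grey) and the 2 Dbp7-HTP libraries (orange and brown), with targets in 5' to 3' order. At Um2417 of SNR66 the WT libraries lie at 135 and 215 and the Dbp7-HTP libraries at 3031 and 2897, and at the 3 targets of SNR24 WT 2 lies above every other library.

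The target of SNR66 differed most. SNR78, another box C/D guide, has a 25S target just past the range of the 10 guides, downstream of Um2417. The coverage given here is that of the stretch and is not assigned to a single guide. Coverage around Um2417 was 135 RPM in WT 1, 215 in WT 2, 3031 in Dbp7-HTP 1 and 2897 in Dbp7-HTP 2. The Dbp7-HTP libraries lay far above the WT libraries and close to each other, and the log2 difference was 4.11, or 17.3-fold. It was 3.28 scaled to 35S and 2.63 scaled to 25S, and 98.1% of 25S positions had a smaller RPM difference. In WT the stretch was covered less than the 25S mean of 869 and 586 RPM, and with Dbp7-HTP it was covered more than the mean of 2031 and 1967 RPM. Coverage with Dbp7-HTP fell downstream of the target. At 10 nucleotides upstream it was 126 and 242 RPM in WT and 3970 and 3629 with Dbp7-HTP, at Um2417 itself 132 and 231 against 3144 and 3173. It was 119 and 94.1 against 1186 and 814 at 10 nucleotides downstream, and at 20 nucleotides downstream 176 and 190 against 390 and 231.

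Substituted uridines can be placed within this stretch (ctgttgagctTgactctagtt). T-to-C substitutions at U2411, 6 nucleotides before the methylated base, were 37.7 and 89.8 RPM in WT and 2019 and 1916 RPM with Dbp7-HTP, which is 30.0% and 35.6% of covering reads in WT and 54.8% and 54.1% with Dbp7-HTP. The neighbouring U2410 was at 12.6, 53.5, 852 and 942 RPM in WT 1, WT 2, Dbp7-HTP 1 and Dbp7-HTP 2. The methylated U2417 itself was substituted in few reads, at 6.28, 19.3, 50.2 and 53.4 RPM. This was 4.76% and 8.33% of covering reads in WT, from 1 and 9 substitutions, and 1.60% and 1.68% with Dbp7-HTP. The WT values rest on 6 and 42 substitutions at U2411, against 2451 and 1400 with Dbp7-HTP. Only reads with a T-to-C change were kept, so each covering read holds a substitution somewhere. A share of covering reads, here and below, therefore shows where substitutions fell within reads and is not a cross-linking rate.

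SNR66 therefore had one of the lowest snoRNA ratios of the 10 beside the most increased target. SNR62, SNR64 and SNR65 also had an RPM ratio below 0.5 beside a target that was higher with Dbp7-HTP under all 3 scalings. Over reads outside rRNA these guides had ratios of 0.960, 1.05 and 0.654, with intervals that all held 1. The interval of SNR62 held 1 by RPM as well. SNR76 too had an RPM ratio below 0.5 (0.498), but its target difference turned to -0.15 scaled to 35S and -0.81 scaled to 25S. SNR47 had the lowest snoRNA ratio and a target near equal by RPM, and SNR63 had the highest snoRNA ratio beside a target whose sign turned with the scaling. Across the 10 guides, whose snoRNA ratios all come from the same 2 libraries, the log ratios of snoRNA and target had a Pearson's r of -0.50 and a Spearman's rho of -0.38, given as a description.

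**Figure D4:**
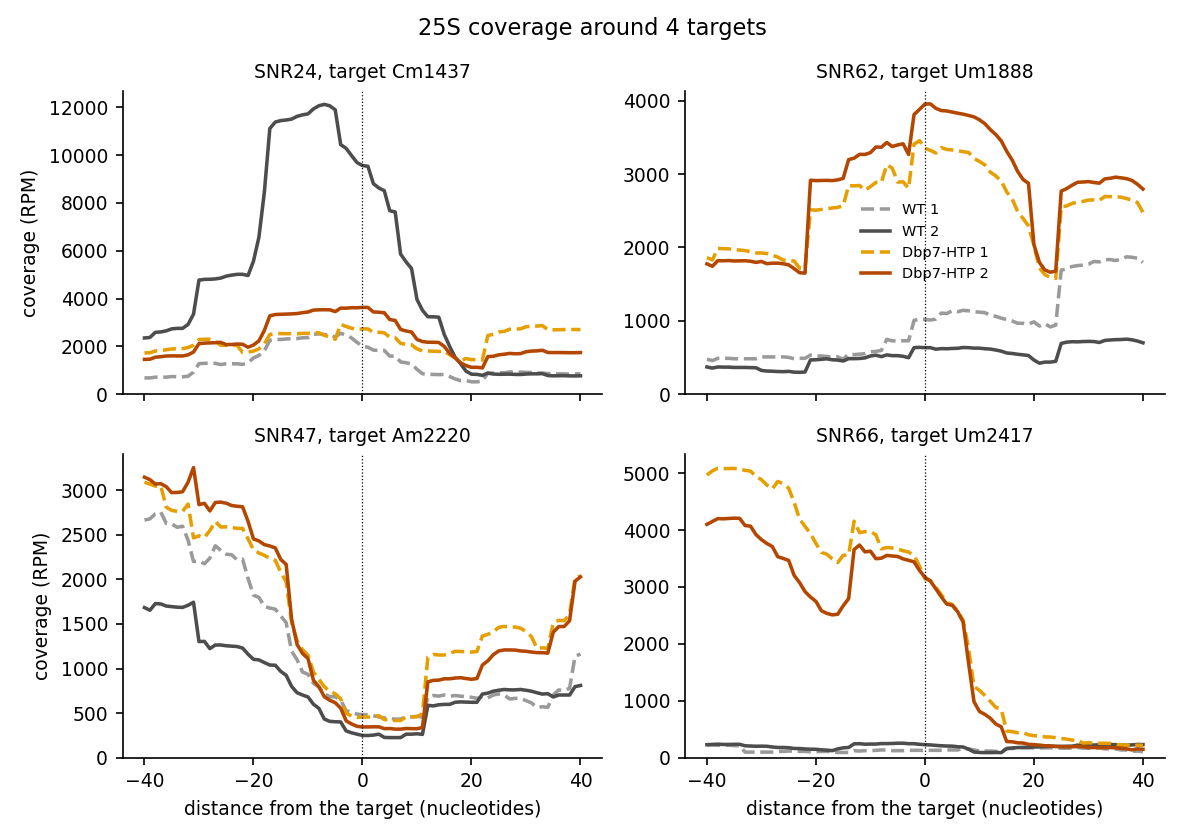
25S coverage (RPM) from 40 nucleotides upstream to 40 downstream of 4 targets, marked by a dotted line at 0, with first replicates dashed and second replicates solid. Around Um2417 of SNR66 the Dbp7-HTP libraries are high upstream. They are still above the WT libraries at 20 nucleotides downstream and overlap them at 30. Around Cm1437 of SNR24 WT 2 is the highest line upstream of the target and at it, but not at 20 nucleotides downstream.

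The target of SNR62, Um1888, was covered at 928 RPM in WT 1, 588 in WT 2, 3169 in Dbp7-HTP 1 and 3664 in Dbp7-HTP 2. The strains did not overlap, and the log2 difference was 2.20, with 1.37 scaled to 35S and 0.72 scaled to 25S. The methylated U1888 was itself substituted in every library, with 270 and 135 RPM of substitutions in WT and 554 and 612 RPM with Dbp7-HTP. Whether U1888 was cross-linked was not tested. As a share of covering reads this was 26.5% and 21.2% in WT and 16.5% and 15.5% with Dbp7-HTP. The share of covering reads substituted at U1888 was thus lower with Dbp7-HTP, while the RPM of such reads was higher. U1894, 6 nucleotides downstream in the stretch gatagaataaTgtagataagg, behaved likewise, with 28.5% and 25.9% against 20.6% and 21.1%.

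The targets of SNR64 and SNR65 share a stretch and had low coverage in WT. Around Cm2337 it was 384 and 348 RPM in WT and 1392 and 1172 RPM with Dbp7-HTP, a log2 difference of 1.80 (0.97 scaled to 35S and 0.32 scaled to 25S). Around Um2347 it was 275 and 219 RPM against 1179 and 1008 RPM, a log2 difference of 2.14 (1.31 and 0.66). Neither target overlapped between the strains. Substitutions at the methylated U2347 were 25.1 and 12.8 RPM in WT and 129 and 126 RPM with Dbp7-HTP, and their share of covering reads, 10.5%, 6.19%, 12.1% and 13.5%, was lowest in WT 2.

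SNR24 was the opposite case, because 1 WT library set its values. Around Cm1437 coverage was 2000 RPM in WT 1, 9199 in WT 2, 2489 in Dbp7-HTP 1 and 3309 in Dbp7-HTP 2. WT 2 stood above the other 3, and the log2 difference of -0.58 turned to 0.52 without it. The highest coverage of all 25S in WT 2, 12123 RPM, was at nucleotide 1430, 7 nucleotides before Cm1437. U1430 was substituted in 95.0% and 97.4% of covering reads in WT and in 77.9% and 83.7% with Dbp7-HTP. It was the most substituted uridine of the stretch in both strains, the untagged one included. Only reads with a T-to-C change were kept, so a base read as C for another reason would also be counted. Whether U1430 was cross-linked was not tested. Around Am1449 and Gm1450 the log2 differences were -0.01 and 0.06, and the coverage of WT 1 (1048 and 1002 RPM) and WT 2 (4088 and 3711 RPM) lay on either side of Dbp7-HTP (1911 and 1905, 2219 and 2130 RPM).

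U1442, between the SNR24 targets, showed another order. Its substitutions were 138 and 178 RPM in WT and 675 and 757 RPM with Dbp7-HTP, or 8.66% and 2.31% of covering reads against 28.2% and 24.2%. Substitutions summed around Am1449 were 383 and 372 RPM in WT and 1305 and 1356 RPM with Dbp7-HTP, a log2 difference of 1.81 that stayed positive scaled to 35S (0.98) and to 25S (0.33), although it was -0.37 over 25 nucleotides on each side, a width that takes in U1430.

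The targets from SNR76 to SNR75 lie close together, and their RPM differences were small and changed sign with the scaling. Around Cm2197 of SNR76 coverage was 2025, 1223, 2404 and 2638 RPM in WT 1, WT 2, Dbp7-HTP 1 and Dbp7-HTP 2. The log2 difference was 0.68 by RPM, but -0.15 scaled to 35S and -0.81 scaled to 25S. Around Am2220 of SNR47 it was 565, 336, 584 and 481 RPM, with overlapping strains and log2 differences of 0.28, -0.55 and -1.20. This stretch was a trough of coverage in all 4 libraries, since 30 nucleotides upstream coverage was 2206, 1303, 2487 and 2837 RPM. The 18S target of SNR47, Am619, was covered at 628 and 469 RPM in WT and 284 and 274 RPM with Dbp7-HTP, a log2 difference of -0.96 (-1.79 scaled to 35S).

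Around Am2256 of SNR63 coverage was 862 and 762 RPM in WT and 1654 and 1562 RPM with Dbp7-HTP, with no overlap and a log2 difference of 0.99 by RPM, 0.15 scaled to 35S and -0.50 scaled to 25S. Around Am2280 of SNR13 it was 2071 and 822 RPM in WT and 2337 and 2288 RPM with Dbp7-HTP, a difference of 0.82 (-0.01 scaled to 35S and -0.66 scaled to 25S), and Am2281, the next nucleotide, had nearly the same values. Around Gm2288 of SNR75 it was 2413, 817, 2282 and 2157 RPM, so that WT 1 was above both Dbp7-HTP libraries and the difference was 0.66 (-0.17 scaled to 35S and -0.83 scaled to 25S). In this stretch the WT libraries differed from each other more than the Dbp7-HTP libraries did, and WT 1 is the shallowest library.

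The whole 35S pre-rRNA was also compared in 134 windows of 50 nucleotides with limma, with Benjamini-Hochberg adjustment over all windows at 0.05. With Dbp7-HTP, 22.4% of windows were higher and 22.4% lower. Of the 8 windows that hold a target, 2 were higher and 0 lower, a share of 2 in 8 near the background. After scaling to 35S coverage, 12.7% of all windows were higher and 37.3% lower, and after scaling to 25S coverage 5.97% were higher and 45.5% lower, with 2 and 1 of the 8 target windows higher.

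The window of SNR66, nucleotides 2400 to 2449 of 25S, rose from 143 and 197 RPM in WT to 2000 and 1777 RPM with Dbp7-HTP. Its log2 difference of 3.48 (SE 0.50, limma adjusted p = 3.95e-05) was the 4th largest of the 134, and it remained past the threshold scaled to 35S (2.65, adjusted p = 0.00640) and to 25S (adjusted p = 0.0151). The window of SNR62, nucleotides 1850 to 1899, rose from 696 and 479 RPM to 2618 and 2885 RPM (2.25, SE 0.51, limma adjusted p = 0.00184). It passed scaled to 35S (1.42, adjusted p = 0.0223) but not scaled to 25S (0.76, adjusted p = 0.128). Its log2 difference was 2.52 without WT 1, 1.98 without WT 2, 2.32 without Dbp7-HTP 1 and 2.18 without Dbp7-HTP 2.

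The remaining 6 target windows did not pass, with limma adjusted p from 0.0638 to 0.509. The window of Gm1450 of SNR24 had a log2 difference of 1.19 (SE 0.51, adjusted p = 0.0638), the window shared by SNR64 and SNR65 one of 0.92 (SE 0.53), and the window shared by SNR63, SNR13 and SNR75 one of 0.79 (SE 0.53). The windows of SNR47 and SNR76 had 0.62 and 0.57, and the window of the first 2 SNR24 targets had -0.49 (SE 0.61). The Gm1450 window lay near the threshold and passed with a pseudocount of 10 RPM (limma adjusted p = 0.0481) and with a trend in eBayes (0.0401). Its limma adjusted p was 0.536 scaled to 35S and 0.604, with the sign turned, scaled to 25S. With 1 library left out, the spread comes from the other strain alone, so only log2 differences are given for these windows. For Gm1450 they were 1.05 without WT 1, 1.33 without WT 2, 0.93 without Dbp7-HTP 1 and 1.45 without Dbp7-HTP 2. Without WT 1, the window shared by SNR64 and SNR65 had 1.51 and that shared by SNR63, SNR13 and SNR75 had 1.35. The window of the first 2 SNR24 targets then had -1.57. The window of SNR64 and SNR65 takes in nucleotides upstream of their stretch, and its WT coverage of 1234 and 542 RPM was above that of the stretch itself, 337 and 285 RPM.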

How the data were processed

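The authors mapped reads with Bowtie 2 (version 2.2.4), kept reads with T-to-C changes and assigned them with pyCRAC. The annotation release is not given in the sources used here, so no chromosome coordinates are printed, and the reference gene table (assembly R64) served for names and neighbours of the 10 guides only. The deposited 35S files hold, per nucleotide, the coverage signal and the count of substitutions, both unnormalized. The deposited snoRNA and RNA class values are scores, that is RPM in whole numbers. With the deposited totals of the second replicates, 100% of the 153 snoRNA values equalled the RPM of a whole number of reads after its decimals were cut off, with no other tolerance, and ratios were formed from those reads. Totals of the first replicates were estimated from 35S coverage per rRNA read (12.2 in WT and 11.1 with Dbp7-HTP), so their RPM carry that uncertainty.

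Log2 differences were taken after adding 1 RPM. Windows of at least 10 RPM were fitted with limma (version 3.58.1, R 4.3.3), which was tested on simulated data. The simulated windows were independent and had equal spread in both strains, which the windows of these data need not have. Ratios, intervals and permutation tests used scipy (version 1.17.1) under Python (version 3.11.15). Replicate numbers come from the labels. The study describes its PAR-CRAC experiments as independent. The limma p-values rest on the spread between libraries of a strain, pooled over both strains and shared across windows. The estimated totals of the first replicates enter that spread. Intervals cover counting error only. The guides, classes and tests were chosen with earlier results of these data known. All 10 guides are named, as are the other snoRNAs of the SNR72 to SNR78 cluster and snR190. Alternatives covered the scaling, pseudocounts, widths, filters, the limma settings, a replicate block and leaving out each library, and the use of the unheaded column was added after seeing the data.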

Additional observations from a re-analysis of the deposited data

How the results depend on the processing

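The RPM ratio of the summed guides of 0.402 became 0.905 over reads outside rRNA, 0.309 over listed snoRNA reads, 0.593 over those without snR190 and 0.488 from the unheaded column. The count of guides below 0.5 was 6 by RPM, 2 outside rRNA, and 3 each without snR190 and from the unheaded column, and the count above 2 went from 0 to 2 outside rRNA. The ratios of SNR75 and SNR64 turned to 1.38 and 1.05 outside rRNA, and the share of the guides in Dbp7-HTP 2 moved to 8.70% without snR190. Adding 1 read, a 1.5-fold limit and no minimum of reads moved none of these by over 1.5 times.

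Scaled to 35S coverage, the median log2 coverage difference of the targets turned to -0.02, and those of Gm1450, Cm2197, Am2220, Am2280, Am2281 and Gm2288 to -0.77, -0.15, -0.55, -0.01, -0.02 and -0.17. Scaled to 25S coverage, the median turned to -0.68, and those of Gm1450, Cm2197, Am2220, Am2256, Am2280, Am2281 and Gm2288 to -1.42, -0.81, -1.20, -0.50, -0.66, -0.68 and -0.83. Substitutions summed around Am2220, Am2256, Am2280, Am2281 and Gm2288 turned to -0.70, -0.17, -0.08, -0.08 and -0.45 scaled to 35S. Scaled to 25S, the median of substitutions turned to -0.52, and those of Cm2197, Am2220, Am2256, Am2280, Am2281 and Gm2288 to -0.52, -1.35, -0.82, -0.73, -0.73 and -1.10. Window differences turned to -0.26 (SNR76), -0.21 (SNR47) and -0.04 (SNR63, SNR13 and SNR75) scaled to 35S, and to -0.30 (Gm1450), -0.92 (SNR76), -0.86 (SNR47), -0.69 (SNR63, SNR13 and SNR75) and -0.57 (SNR64 and SNR65) scaled to 25S. With the target nucleotide alone, Am1449 turned to 0.27. With 25 nucleotides on each side, coverage at Gm1450 turned to -0.12, and substitutions at Am1449 and Gm1450 to -0.37 each.

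Of all 134 windows, 30 were higher and 30 lower. These counts became 48 and 47 of 266 with 25-nt windows, 17 and 50 scaled to 35S, and 8 and 61 scaled to 25S, where 1 target window was higher. Target windows numbered 3 higher with a pseudocount of 10 RPM, with a trend in eBayes and with 25-nt windows. With 1 library left out, between 8 (without Dbp7-HTP 2) and 49 (without WT 1) windows were higher and between 4 (without Dbp7-HTP 2) and 46 (without WT 2) lower. Of the target windows between 1 (without either Dbp7-HTP library) and 5 (without WT 1) were higher and 0 to 1 (without WT 1) lower, the lone library being assumed to vary like the other strain. The window of SNR66 passed under every alternative that kept its size and all 4 libraries, with limma adjusted p from 5.28e-08 to 0.0151. With 1 library left out, its log2 difference ranged from 3.25 (without WT 1) to 3.71 (without WT 2). Over the libraries left out, the coverage difference ranged from -1.68 to 0.52 at Cm1437, -0.99 to 0.97 at Am1449, -0.88 to 1.01 at Gm1450, -0.09 to 0.65 at Am2220, 0.16 to 1.49 at Am2280, 0.13 to 1.49 at Am2281 and -0.12 to 1.44 at Gm2288. The median over targets ranged from 0.79 to 1.44 (without WT 1) for coverage and from 0.76 to 1.48 (without WT 1) for substitutions. For substitutions the range was -1.75 to 0.43 at Cm1437, -0.89 to 1.15 at Am2220 and -0.58 to 1.35 at Gm2288. The window of Cm1437 ranged from -1.57 to 0.59. In these ranges at single targets and windows the WT libraries gave both ends. The cause of these changes was not tested.

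With the replicate number as a block, 31 windows were higher and 31 lower, 2 target windows were higher, and no other call changed. Deviations of same-numbered libraries correlated at 0.12 over windows. The study describes independent experiments with both strains, but no label states that a number marks an experiment. The permutation test of the pairs cannot go below 0.5. SNR62, SNR76 and SNR65 had at most 12 reads in a library, which limits what their ratios can show.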
